A study of Mus musculus with 18 samples.

Results

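The Gasdermin C family comprises 4 mouse genes, Gsdmc, Gsdmc2, Gsdmc3 and Gsdmc4, which lie in 1 block on chromosome 15 with pseudogenes between them. Their probe sets were found by gene symbol in the platform annotation, which gave 4 of the 41345 probe sets on the array. Gsdmc (probe set 17317428), Gsdmc2 (17317442) and Gsdmc3 (17317458) each had 1 probe set of their own. Gsdmc4 was annotated only together with Gsdmc2, on probe set 17317472, so no level of Gsdmc4 alone was measured. The family was chosen because its levels differed between the donor groups in the small intestine. Its intestinal values are therefore given as a description, without a test, while the liver values and those of the other genes were tested.

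The study used Affymetrix whole-transcript arrays to compare small intestine and liver of formerly germ-free mice, animals raised without microbes, 8 weeks after they were given the gut microbiota of old or of young donors. OMT recipients received microbiota from donors of about 24 months. YMT recipients received microbiota from young donors, whose age the sources give both as 4 weeks and as 5 to 6 weeks. All recipients were of C57BL/6 background (written C57BL\6 in the labels) and were 5 to 6 weeks old at transfer, and the sources give both 12 and 13 weeks as their age at sampling. Each tissue was represented by 5 OMT and 4 YMT arrays, which the titles call biological replicates. The p-values below measure the spread among these samples; donors and cages are not identified in the sources used here, so a shared donor or cage cannot be told apart from donor age.

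Gasdermins are a family of proteins whose N-terminal part, once cut free from the C-terminal part by a protease, inserts into membranes and forms pores. Pores in the plasma membrane release cell contents and can end in a lytic death called pyroptosis. The Gasdermin C genes are expressed mainly in epithelia. In mouse intestine Gsdmc2, Gsdmc3 and Gsdmc4 are known to be induced in epithelial cells by the type 2 cytokines IL-4 and IL-13, which act through the transcription factor STAT6, during worm infection. In human cancer cells GSDMC is known to be cleaved by caspase-8.

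Levels are log2 values per probe set, differences are OMT minus YMT on that scale, and group values are mean ± SD over the 5 OMT or 4 YMT arrays of a tissue. Levels are not compared between probe sets, because probes differ in how brightly they report a transcript. The tissue labels held: enterocyte markers had mean levels of 11.07 to 12.01 in the intestines, against 6.54 to 6.84 in the livers, and hepatocyte markers had mean levels of 5.51 to 6.06 in the intestines, against 11.36 to 11.47 in the livers. Array medians over all probe sets lay at 4.39 to 4.51 in intestine and 4.12 to 4.22 in liver.

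The promoter of Gsdmc3 is shown because it was the only family promoter at hand. The probe set of Gsdmc3 is one of those that differed in the intestine. RefSeq's table of 300-base windows, from 250 bases before to 50 bases after the annotated start, held an entry for Gsdmc3 on GRCm38.p6 at chr15:63878509-63878808, minus strand. Capitals mark a match to the TATA box, the element at which transcription by RNA polymerase II is often set up.
Gsdmc3 promoter: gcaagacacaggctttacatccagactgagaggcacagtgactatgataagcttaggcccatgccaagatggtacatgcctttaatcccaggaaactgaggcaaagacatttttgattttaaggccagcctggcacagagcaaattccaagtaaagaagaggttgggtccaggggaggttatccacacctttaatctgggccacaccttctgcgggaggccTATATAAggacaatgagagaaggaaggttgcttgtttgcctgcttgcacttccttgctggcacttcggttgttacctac
The match, TATATAA, lay 29 to 23 bases before the annotated start. It was looked for after the sequence had been seen, on both strands, and 3.24% of the 32851 promoter windows in the table held it. Another 4 sequences were searched for on both strands: the STAT6-type palindrome of TTC and GAA with any 4 bases between, held by 6.95% of all windows; the STAT-type palindrome TTCNNNGAA, held by 8.30%; the CDX-type sequence TTTATNG, held by 10.9%; and the HNF4-type sequence CAAAGTCCA, held by 0.475%. None of these letters occurred in the Gsdmc3 window, which says nothing about whether those factors act on the gene. Gsdmc, Gsdmc2 and Gsdmc4 had no window among those used here, so their promoters were not analysed.

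In the small intestine, the Gsdmc2, Gsdmc3 and shared Gsdmc4 and Gsdmc2 probe sets were all lower in OMT than in YMT recipients, each by at least 10.2-fold, and in each the highest OMT array lay below the lowest YMT array. The Gsdmc probe set was dim in both groups, and its values overlapped. In bulk tissue, fewer cells of a type and less RNA per cell cannot be told apart.

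**Figure D1:**
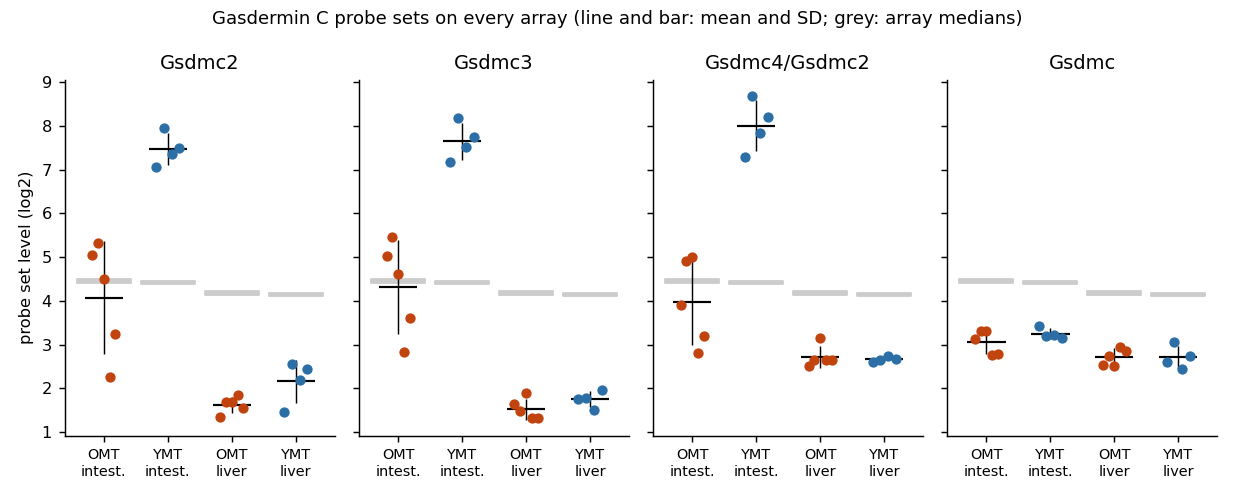
Log2 level of each Gasdermin C probe set on each of the 18 arrays, by donor group and tissue; points are arrays, the line and bar are mean and SD, and the grey bands are the range of the array medians. In intestine the OMT arrays lie below all YMT arrays for Gsdmc2, Gsdmc3 and the shared Gsdmc4/Gsdmc2 probe set, while the Gsdmc arrays overlap; all liver arrays lie below the array medians.

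The Gsdmc2 probe set had levels of 5.06, 5.33, 4.50, 2.25 and 3.24 on the 5 OMT intestine arrays, and 7.07, 7.96, 7.36 and 7.50 on the 4 YMT intestine arrays. All OMT arrays were low and all YMT arrays high, with a gap of 1.74 between the highest OMT and the lowest YMT array. The group levels were 4.08 ± 1.30 in OMT and 7.47 ± 0.37 in YMT intestine, a difference of -3.40 ± 0.61 (SE from the group SDs), which is 10.5-fold lower in OMT. The OMT arrays were more widely spread than the YMT arrays, and OMT replicates 4 and 5 were the lowest.

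The Gsdmc3 probe set had levels of 5.03, 5.46, 4.61, 2.83 and 3.61 on the OMT intestine arrays, and 7.17, 8.19, 7.51 and 7.74 on the YMT intestine arrays. The order of the arrays was the same as for Gsdmc2, with OMT replicate 2 the highest of its group and OMT replicate 4 the lowest. The group levels were 4.31 ± 1.07 in OMT and 7.65 ± 0.43 in YMT intestine, a difference of -3.34 ± 0.53 or 10.2-fold lower in OMT, with a gap of 1.71 between the groups.

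The shared Gsdmc4 and Gsdmc2 probe set had levels of 3.91, 4.91, 5.00, 2.81 and 3.20 on the OMT intestine arrays, and 7.30, 8.69, 7.84 and 8.20 on the YMT intestine arrays. Here OMT replicates 2 and 3 were the highest of their group. The group levels were 3.97 ± 0.99 in OMT and 8.01 ± 0.59 in YMT intestine, a difference of -4.04 ± 0.53 or 16.5-fold lower in OMT, with a gap of 2.30 between the groups. Of the 5 OMT arrays 3 lay below the array median, and RMA narrows differences of dim probe sets, so the folds of these probe sets may be understated. Among all 41345 probe sets, this was the most negative intestinal difference, followed by Gsdmc2 and Gsdmc3. The next probe sets, which are unnamed here, differed by -3.29, -3.10 and -2.50.

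The Gsdmc probe set had levels of 3.13, 3.30, 3.31, 2.77 and 2.78 on the OMT intestine arrays, and 3.43, 3.20, 3.23 and 3.15 on the YMT intestine arrays. The groups overlapped, at 3.06 ± 0.27 in OMT and 3.25 ± 0.12 in YMT intestine, a difference of -0.19 ± 0.13. The probe set stood below the array median on all 9 intestine arrays, between the 18.2nd and the 30.0th percentile of its array. At this dim level no difference beyond the spread between arrays was detectable.

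Thus 3 of the 4 family probe sets had every OMT array below every YMT array in intestine; the same held for 2.84% of all probe sets on the array. The family was chosen on this contrast, so its count is no independent result. The 3 probe sets stood between the 12.4th and 67.9th percentile of the array in OMT intestine and between the 84.1st and 94.2nd in YMT intestine. A level above the array median, the criterion for entering the test, was reached by Gsdmc2 on 3 of 5 OMT and 4 of 4 YMT arrays, by Gsdmc3 on 3 of 5 and 4 of 4, and by the shared probe set on 2 of 5 and 4 of 4. Only 2 of the 4 family probe sets, Gsdmc2 and Gsdmc3, passed the filter on level and on having 1 symbol.

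Closely related genes can hybridise to one another's probes, so it was examined how far the family probe sets moved apart. After each group's mean was taken away, Gsdmc2 and Gsdmc3 followed each other across the 9 intestine arrays with a Pearson r of 0.993 and a Spearman rho of 1, and their deviations differed by at most 0.35 on any array. Their OMT minus YMT differences were also alike, with a difference between them of -0.05 ± 0.11 (SE). These points share the same tissue samples and hybridisations, and the correlation is a description.

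The shared Gsdmc4 and Gsdmc2 probe set followed the others less closely, with r of 0.835 to Gsdmc2 and 0.864 to Gsdmc3. On OMT replicate 1 it lay at -0.06 from its group mean, while Gsdmc2 lay at 0.98 and Gsdmc3 at 0.72 above theirs. On OMT replicate 3 it was 1.03 above its mean, while Gsdmc2 was 0.42 and Gsdmc3 0.30 above theirs. On OMT replicate 4 it was 1.16 below its mean, while Gsdmc2 was 1.83 and Gsdmc3 1.48 below theirs. Its difference between the groups exceeded that of Gsdmc2 in size by 0.65 ± 0.34 and that of Gsdmc3 by 0.70 ± 0.27. On the YMT arrays all 3 were highest in replicate 2 and lowest in replicate 1.

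The Gsdmc probe set followed the other 3 with r of 0.667 to 0.740, within a much narrower range of values. Whether the probes of Gsdmc2 and Gsdmc3 detect each other's transcripts, or those of Gsdmc4, was not tested, since probe sequences were not used here. The values therefore describe probe sets and do not assign the difference to Gsdmc2, Gsdmc3 or Gsdmc4 singly.

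**Figure D2:**
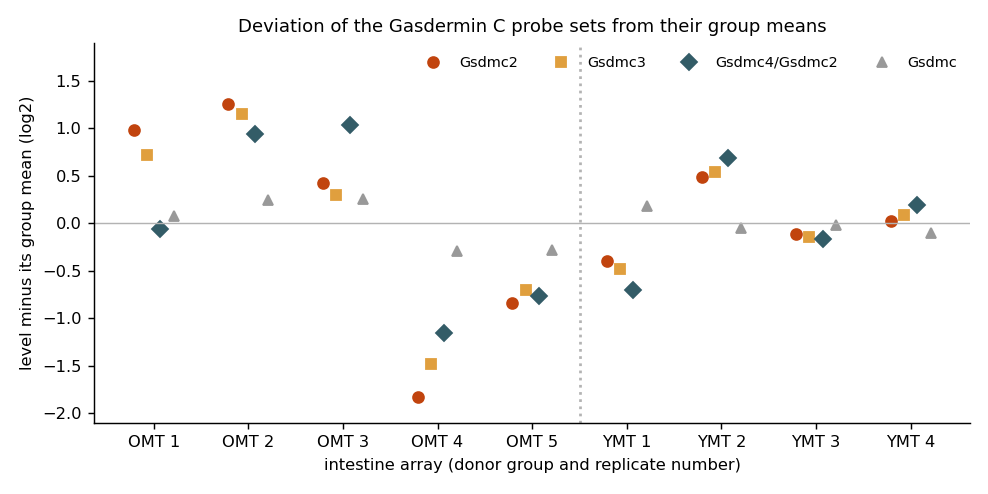
Deviation of each Gasdermin C probe set from the mean of its donor group on each of the 9 intestine arrays (log2). Gsdmc2 and Gsdmc3 lie within 0.35 of each other on every array; the shared Gsdmc4/Gsdmc2 probe set departs from Gsdmc2 most on OMT replicate 1, by 1.04, and follows it less closely on OMT replicates 3 and 4 too.

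In liver all 4 probe sets were dim: their levels lay between 1.31 and 3.14, between the 1.99th and 29.0th percentile of the array, and none exceeded an array median. None passed the liver filter, so they were tested without it, by limma with Benjamini-Hochberg adjustment over 22180 genes. None of the 3 probe sets with 1 symbol was called, against 9.47% of all genes in that fit. The groups overlapped for all 4 probe sets, and every OMT array lay below every YMT array for 3.89% of all probe sets.

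The Gsdmc2 probe set had levels of 1.34, 1.69, 1.69, 1.84 and 1.54 on the OMT liver arrays, and 1.46, 2.56, 2.18 and 2.43 on the YMT liver arrays. YMT replicate 1 was as low as the OMT arrays, and the other 3 YMT arrays were above all OMT arrays. The difference was -0.54 ± 0.20 (SE; adjusted p = 0.131 and unadjusted p = 0.0212, limma), between group levels of 1.62 ± 0.19 in OMT and 2.16 ± 0.49 in YMT liver. With YMT liver replicate 1 left out, the difference was -0.77 and passed the threshold (adjusted p = 0.0244, limma over all probe sets); over all alternatives the adjusted p ranged up to 0.631. The signal stood between the 2.70th and 19.4th percentile of the array throughout.

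The Gsdmc3 probe set had levels of 1.63, 1.49, 1.88, 1.31 and 1.31 on the OMT liver arrays, and 1.75, 1.77, 1.51 and 1.96 on the YMT liver arrays. The groups overlapped, and the difference was -0.22 ± 0.13 (adjusted p = 0.36, limma). The Gsdmc probe set had levels of 2.53, 2.74, 2.52, 2.95 and 2.86 on the OMT liver arrays, and 2.61, 3.05, 2.44 and 2.74 on the YMT liver arrays, with a difference of 0.01 ± 0.13 (adjusted p = 0.98, limma). These values also overlapped.

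The shared Gsdmc4 and Gsdmc2 probe set had levels of 2.51, 2.64, 3.14, 2.64 and 2.64 on the OMT liver arrays, and 2.61, 2.64, 2.74 and 2.68 on the YMT liver arrays. Apart from OMT replicate 3 the arrays of both groups were nearly level. The difference was 0.05 ± 0.12 (adjusted p = 0.886, limma over all 41345 probe sets, of which 4.24% were called).

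No difference of that size was seen among the other gasdermins in intestine. All 11 other gasdermin-annotated probe sets overlapped between OMT and YMT intestine, with differences of -0.29 to 0.27. Every OMT array lay below every YMT array for only 2.84% of all probe sets, so the lack of such separation is no trait of these genes. Gsdmd, the gasdermin that caspase-1 and caspase-11 cut in mouse inflammatory cell death, had intestinal levels of 9.69 ± 0.17 in OMT and 9.77 ± 0.30 in YMT, a difference of -0.08 ± 0.14 (adjusted p = 0.765, limma). Gsdme, a gasdermin that caspase-3 cuts, had intestinal levels of 8.64 ± 0.22 in OMT and 8.93 ± 0.23 in YMT, a difference of -0.29 ± 0.14 (adjusted p = 0.239, limma). Gsdma, Gsdma2, Gsdma3 and Pjvk did not pass the intestinal filter, with differences of -0.07, -0.09, 0.18 and 0.11.

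In liver the tested Gsdmd probe set was lower in OMT recipients. Its levels were 6.21, 6.58, 6.14, 6.31 and 6.10 on the OMT liver arrays, and 6.98, 6.77, 6.57 and 6.62 on the YMT liver arrays, overlapping only between OMT replicate 2 and YMT replicate 3. The difference was -0.47 ± 0.12 (adjusted p = 0.0174, limma over 13380 genes, of which 19.2% were called). The call was lost without YMT liver replicate 2 (adjusted p = 0.0502). Another Gsdmd probe set differed by -0.22 in liver (adjusted p = 0.408, limma over all probe sets) and by -0.002 in intestine. In that liver fit over all probe sets, the first Gsdmd probe set was not called either (adjusted p = 0.0711). Gsdme did not pass the test in liver (0.13 ± 0.07; adjusted p = 0.252).

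**Figure D3:**
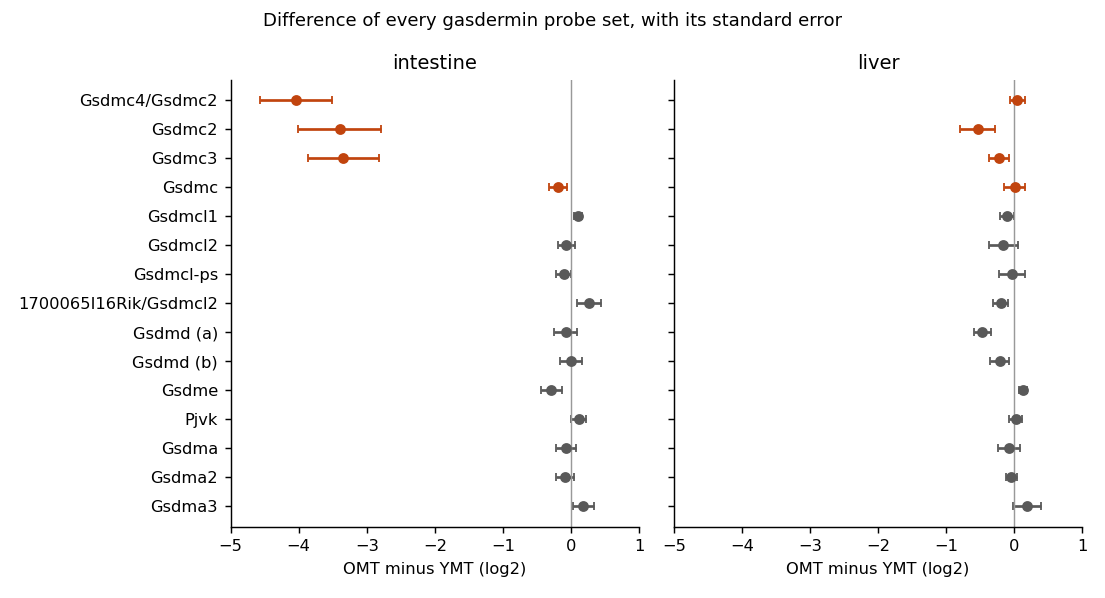
OMT minus YMT difference (log2) of each of the 15 gasdermin-annotated probe sets in intestine and in liver, with the standard error from the group SDs; family probe sets are in orange, and a and b are the 2 probe sets of Gsdmd. In intestine Gsdmc2, Gsdmc3 and the shared Gsdmc4/Gsdmc2 probe set lie between -4.04 and -3.34, and all others between -0.29 and 0.27.

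The family's immediate neighbours include pseudogenes of its own kind, copies without a working protein. In RefSeq's order on chromosome 15 the block runs Gsdmc, 1700065I16Rik, Gsdmc2, Gsdmcl1, Gsdmc3, Gsdmcl2 and Gsdmc4; the order is from GRCm38.p6, and the build behind the array is not given in the sources used here. Gsdmcl1 had intestinal levels of 5.56 ± 0.08 in OMT and 5.46 ± 0.11 in YMT, a difference of 0.10 ± 0.08 (adjusted p = 0.435, limma). Gsdmcl2 had intestinal levels of 5.20 ± 0.26 in OMT and 5.27 ± 0.07 in YMT, a difference of -0.07 ± 0.12 (adjusted p = 0.769, limma). Over the 4 pseudogene probe sets the differences ran from -0.11 to 0.27.

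Of the 5 protein-coding genes on each side of the block, looked up after the family's values had been seen, 8 of 10 were tested in intestine and 1 was called, against 4.14% of the 13238 genes tested. The called gene was Efr3a, which encodes a plasma membrane protein, with a difference of -0.31 ± 0.07 (adjusted p = 0.0481, limma). The Efr3a call was lost when any one of 8 of the 9 intestine arrays was left out, all but OMT replicate 2, with adjusted p up to 0.122. The oncogene Myc differed by -0.42 ± 0.14 (adjusted p = 0.118, limma), and Cyrib by -0.29 ± 0.10 (adjusted p = 0.131, limma).

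Among the genes that act around gasdermins, 2 inflammatory caspases were lower in OMT intestine. Of 22 inflammasome and pyroptosis genes, 16 were tested; 2 fell, none rose, and their median difference was -0.19, against -0.02 over all genes tested, of which 3.1% fell and 1.04% rose. Casp1, the caspase that inflammasomes activate, had levels of 8.96, 9.06, 9.35, 9.30 and 9.08 in OMT intestine, and 9.91, 9.79, 9.91 and 9.76 in YMT intestine. Every OMT array lay below every YMT array, and the difference was -0.69 ± 0.09 (adjusted p = 0.00598, limma). The Casp1 call held in all 20 alternatives.

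Casp4, the mouse gene for caspase-11, a sensor of bacterial lipopolysaccharide in the cytosol, had levels of 6.18, 7.39, 7.51, 6.95 and 7.45 in OMT intestine, and 8.24, 8.49, 8.87 and 8.35 in YMT intestine. Its groups did not overlap either, with a difference of -1.39 ± 0.26 (adjusted p = 0.0201, limma). The call was lost without YMT intestine replicate 2 (adjusted p = 0.0673) and without replicate 4 (adjusted p = 0.0503). Nek7, a partner of the NLRP3 inflammasome, differed by -0.49 ± 0.15 (adjusted p = 0.0939), and the cytokine gene Il1b by -0.52 ± 0.18 (adjusted p = 0.127).

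Casp8, the initiator caspase known to cut human GSDMC, had intestinal levels of 10.04 ± 0.47 in OMT and 10.57 ± 0.15 in YMT; it was singled out after its values were seen. Its difference of -0.53 ± 0.21 did not pass the test (adjusted p = 0.17, limma). Il18, a cytokine gene whose product caspase-1 matures, differed by 0.43 ± 0.22 in intestine (adjusted p = 0.28, limma) and was likewise singled out.

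Of the type 2 cytokine genes themselves, Il4, Il5, Il9 and Il13 did not pass the intestinal filter; the Il4 probe set averaged 3.04 in OMT and 2.90 in YMT intestine, and the Il13 probe set averaged 4.22 in OMT and 4.08 in YMT intestine. Of 19 genes of type 2 cytokine signalling, 10 were tested; 1 fell, none rose, and their median difference was -0.16, against 3.1% of all tested genes that fell, 1.04% that rose and a median of -0.02. The receptor genes Il13ra1 and Il4ra differed by -0.38 ± 0.13 (adjusted p = 0.125) and by -0.33 ± 0.15 (adjusted p = 0.235). Stat6 had intestinal levels of 8.71 ± 0.17 in OMT and 8.91 ± 0.09 in YMT, a difference of -0.20 ± 0.10 (adjusted p = 0.241, limma).

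The gene that fell was Socs1, an inhibitor of cytokine receptor signalling that cytokines induce. It had levels of 5.07, 5.43, 5.30, 5.19 and 5.53 in OMT intestine, and 5.63, 5.75, 6.08 and 6.08 in YMT intestine, without overlap. The difference was -0.58 ± 0.13 (adjusted p = 0.0331, limma). The Socs1 call held in 10 of 19 alternatives, the threshold of 0.10 among them. It was lost on leaving out any one of OMT replicates 1 to 4 or YMT replicates 2 to 4, with adjusted p up to 0.0951.

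Of 15 epithelial genes that type 2 cytokines are known to induce, 5 were tested; 1 fell, none rose, and the median difference was -0.22, against 3.1% of all tested genes that fell, 1.04% that rose and a median of -0.02. The gene that fell was Clca1, a secreted goblet cell protein, with levels of 10.89, 11.31, 11.46, 11.43 and 11.78 in OMT intestine, and 12.41, 12.25, 11.98 and 12.13 in YMT intestine. The groups did not overlap, and the difference was -0.82 ± 0.16 (adjusted p = 0.0245, limma). The Clca1 call was lost without OMT replicate 2 (adjusted p = 0.0626) and without YMT replicates 1, 2 or 4 (adjusted p = 0.0646, 0.0798 and 0.0594). Sprr2b, a small proline-rich protein gene, differed by -0.42 ± 0.16 (adjusted p = 0.151), the lectin gene Itln1 by -0.22 ± 0.18 (adjusted p = 0.5) and the antimicrobial ribonuclease gene Ang4 by 0.13 ± 0.18 (adjusted p = 0.711).

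**Figure D4:**
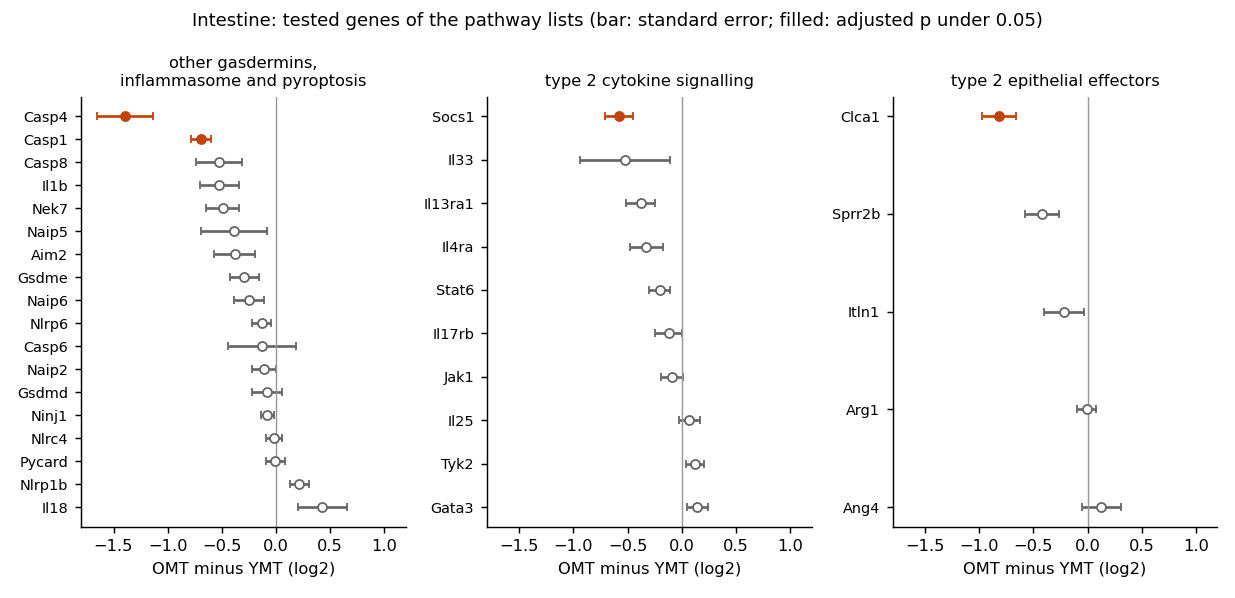
OMT minus YMT difference (log2) in intestine of each tested gene among the other gasdermins with the inflammasome and pyroptosis genes, among type 2 cytokine signalling genes and among type 2 epithelial effectors; bars are limma standard errors and filled points passed the test. Casp4, Casp1, Socs1 and Clca1 passed, all lower in OMT.

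In liver, members of both the inflammasome and the type 2 signalling lists were called in both directions. Of 10 inflammasome and pyroptosis genes tested there, 2 fell and 1 rose, and of 10 type 2 signalling genes tested, 3 fell and 1 rose, against 8.78% of all tested liver genes that fell and 10.4% that rose. Il18 fell, with levels of 5.87 ± 0.23 in OMT and 6.71 ± 0.11 in YMT liver and a difference of -0.84 ± 0.12 (adjusted p = 0.000732, limma). Il1a fell by 0.49 ± 0.11 (adjusted p = 0.00918), and the inflammasome sensor gene Nlrp6 rose by 0.54 ± 0.17 (adjusted p = 0.0461). The Nlrp6 call was lost on leaving out any one of OMT liver replicates 1, 2 and 5 or YMT liver replicates 1, 2 and 4, with adjusted p up to 0.129.

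Stat6 fell in liver by 0.40 ± 0.09 (adjusted p = 0.00896, limma), Il13ra1 by 0.74 ± 0.17 (adjusted p = 0.0112) and the interleukin-25 receptor gene Il17rb by 0.61 ± 0.15 (adjusted p = 0.0179). Il4ra rose in liver by 0.51 ± 0.13 (adjusted p = 0.0201), a call that was lost without YMT liver replicate 2 (adjusted p = 0.0618). Whether these genes differed unequally between intestine and liver was not tested.

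Because the family is expressed by epithelial cells, marker levels of epithelial and other cell types were set beside its values. For each of 18 lists the mean marker level per array was compared between OMT and YMT intestine by an exact permutation test over 126 splits, two-sided, for which 0.0159 is the smallest possible p. Before adjustment 5 of 18 lists passed 0.05, and after adjustment over the 18 lists none did, the lowest adjusted p being 0.143. With this smallest possible p, a list could pass the adjustment only if several lists had a low p together. A list that failed is therefore not shown to be unchanged. Goblet cell markers averaged 10.18 ± 0.24 in OMT and 10.67 ± 0.14 in YMT intestine, ranging from 9.86 to 10.48 in OMT and from 10.54 to 10.87 in YMT (difference -0.49; exact p = 0.0159, adjusted p = 0.143). With the median over the list the groups overlapped, and the difference was -0.24 (exact p = 0.0317, adjusted p = 0.286, permutation test). Of 10 goblet cell genes tested, Clca1 and Klk1 fell, against 3.1% of all tested genes. The kallikrein protease gene Klk1 fell by 1.66 ± 0.23 (adjusted p = 0.00598, limma).

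Markers of the villus tip, where enterocytes end their life, averaged 9.91 ± 0.28 in OMT and 9.08 ± 0.59 in YMT intestine, ranging from 9.41 to 10.10 in OMT and from 8.22 to 9.55 in YMT (difference 0.83; exact p = 0.0317, adjusted p = 0.171). Without YMT replicate 1, the lowest array, the difference was 0.55 (exact p = 0.0714, adjusted p = 0.257). Of these 10 genes 1 rose, against 1.04% of all genes tested. This was Nt5e, which encodes an enzyme that makes adenosine. It had levels of 8.45, 9.72, 9.55, 9.82 and 9.27 in OMT intestine, and 5.49, 7.18, 7.26 and 6.73 in YMT intestine. The groups did not overlap, and the difference was 2.70 ± 0.38 (adjusted p = 0.00616, limma), a call that held in all 20 alternatives, as that of Klk1 did.

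Markers of the villus base averaged 9.16 ± 0.37 in OMT and 9.58 ± 0.16 in YMT intestine (exact p = 0.111, adjusted p = 0.222). The difference was -0.42, and -0.08 with the median over the list on each array (exact p = 0.317, permutation test). The median difference of the 7 tested genes was -0.60. Il18, named above, is also on this list and was higher in OMT. Of 7 tested genes 1 fell, against 3.1% of all genes tested. It was Lypd8, which keeps flagellated bacteria off the epithelium, with a fall of 0.94 ± 0.21 (adjusted p = 0.0343, limma). The Lypd8 call was lost on leaving out any one of OMT replicates 2 and 3 or of the 4 YMT replicates, with adjusted p up to 0.0999. General enterocyte markers averaged 11.85 ± 0.16 in OMT and 11.58 ± 0.37 in YMT intestine (exact p = 0.206, adjusted p = 0.338). None of the 12 tested genes passed, against 4.14% of all genes tested, too small a share to set these 12 apart. Tuft cell markers, which mark the epithelial cells that release interleukin-25, averaged 5.34 ± 0.14 in OMT and 5.25 ± 0.10 in YMT intestine (exact p = 0.365, adjusted p = 0.438).

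T cell and NK cell markers averaged 6.60 ± 0.23 in OMT and 7.07 ± 0.25 in YMT intestine (exact p = 0.0476, adjusted p = 0.171). Of the 8 tested genes, 2 granzyme genes of cytotoxic cells passed the test, against 4.14% of all genes tested: Gzmb fell by 1.43 ± 0.27 (adjusted p = 0.0219, limma) and Gzma fell by 0.96 ± 0.22 (adjusted p = 0.0394, limma). The Gzmb call was lost without YMT replicate 2 (adjusted p = 0.0768) or 4 (adjusted p = 0.0549), and the Gzma call was lost on leaving out any one array but YMT replicate 1, with adjusted p up to 0.116.

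Markers of the proximal small intestine averaged 7.71 ± 0.38 in OMT and 7.13 ± 0.76 in YMT intestine, ranging from 7.14 to 8.05 in OMT and from 6.07 to 7.82 in YMT (exact p = 0.175, adjusted p = 0.314). Distal markers averaged 10.14 ± 0.41 in OMT and 10.57 ± 0.48 in YMT intestine, ranging from 9.55 to 10.63 in OMT and from 9.97 to 11.14 in YMT (exact p = 0.238, adjusted p = 0.357). Without YMT replicate 1 the differences between the groups were 0.22 for proximal markers, -0.23 for distal markers and 0.10 for general enterocyte markers. With it they were 0.57, -0.42 and 0.27. The proximal and enterocyte lists share Fabp1 and Lct, so their shifts are not separate observations. With all arrays and the median over each list, the differences were 0.72, -0.07 and 0.05 in the same order. Colon markers averaged 6.31 ± 0.07 in OMT and 6.16 ± 0.03 in YMT intestine without overlap (difference 0.16; exact p = 0.0159, adjusted p = 0.143). Of the 5 colon markers on the array only Slc26a3 and Car4 were above the filter, with a difference of 0.51 between the groups, and the median over the list differed by -0.13. The pancreas acinar markers averaged 3.54 ± 0.19 in OMT and 3.29 ± 0.08 in YMT intestine (exact p = 0.0476, adjusted p = 0.171). These means lay below the array medians. Of the 5 acinar markers on the array only 1 was above the filter, with a difference of 0.07 (exact p = 0.698, permutation test).

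Single calls came in 3 other marker lists, with 2 tested colon, 9 tested tuft cell and 2 tested mast cell and eosinophil genes. Over all genes tested 4.14% were called. These single calls depended on most of the arrays. The chloride transporter gene Slc26a3 of the colon list rose by 0.40 ± 0.09 (adjusted p = 0.0406, limma), a call kept only without OMT replicate 2 or YMT replicate 1 when 1 array was left out (adjusted p otherwise up to 0.114). The leukotriene synthase gene Ltc4s of the tuft cell list rose by 0.53 ± 0.12 (adjusted p = 0.0424, limma), a call kept only without OMT replicate 2 (otherwise up to 0.113). The receptor gene Kit of the mast cell and eosinophil list fell by 0.64 ± 0.13 (adjusted p = 0.0297, limma), a call kept only without OMT replicates 4 or 5 or YMT replicate 3 (otherwise up to 0.0768). The part of goblet cells, villus position, gut segment, lymphocytes or other cells in the family's difference was not tested.

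**Figure D5:**
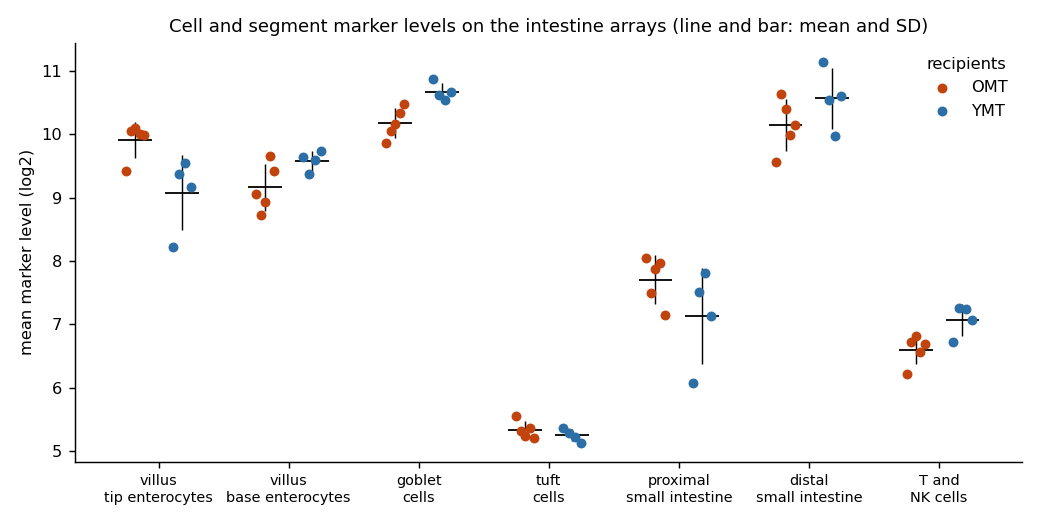
Mean log2 level of 7 marker lists on each intestine array, OMT and YMT; points are arrays, the line and bar are mean and SD. Goblet cell levels do not overlap between the groups (9.86 to 10.48 in OMT, 10.54 to 10.87 in YMT). Taken as the median over the list they do overlap. The other lists shown overlap.

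The intestine arrays also differed in their level of small nucleolar RNAs (snoRNAs), short nuclear RNAs that guide RNA modification. The mean over 64 snoRNA genes was 8.75, 8.28, 7.84, 7.42 and 7.90 on the OMT arrays, and 7.65, 7.59, 7.81 and 7.29 on the YMT arrays. OMT replicates 1 and 2, the highest of these, also held the highest Gsdmc2 and Gsdmc3 levels of the OMT group. When both were left out, which was decided with the data already seen, the intestinal differences were -4.14 for Gsdmc2, -3.97 for Gsdmc3 and -4.34 for the shared probe set. Both arrays left out were high for Gsdmc2 and Gsdmc3. For the shared probe set replicate 2 lay 0.94 above its group mean, but replicate 1 lay at -0.06. The greater size of the differences follows from leaving out these levels, so it adds nothing on the part of snoRNAs, which was not tested.

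A set of 6 genes followed the family most closely within the groups, by Pearson r over the 9 intestine arrays to the mean of the Gsdmc2 and Gsdmc3 probe sets after each group's mean was taken away. They were Syf2, a splicing factor gene (r = 0.972), Tnni2, a skeletal muscle troponin gene (0.965), Golga4, a Golgi protein gene (0.952), Psrc1, a microtubule regulator gene (0.943), the microRNA gene Mir758 (0.941), and Naip5, a sensor of bacterial flagellin (0.936). Of 13236 genes, 22 or 0.166% had an r over 0.9, and the median r was -0.15. None of the 6 passed the test between OMT and YMT intestine, their adjusted p-values lying between 0.264 and 0.88. By construction this likeness concerns the spread among recipients of the same donor group, and all these genes were read on the same arrays.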

How the data were processed

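RNA from 9 small intestines and 9 livers was hybridised to 1 array each. The deposited log2 values are RMA output of Affymetrix Expression Console (submitters' processing notes, without versions). The base of the logarithm is not stated, and 2 was inferred from how far the values reach. RMA narrows differences of dim probe sets, and joint normalization of both tissues is not stated, so levels were compared within a tissue. Precision is limited by how few arrays each group has.

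Of the 41345 probe sets, 23521 carry 1 symbol (22180 genes). A gene entered a tissue's test with 1 symbol and a level above the array median on at least 4 of 9 arrays, through its probe set of highest mean. OMT was compared with YMT by limma 3.58.1 in R 4.3.3, two-sided, and p-values were adjusted by Benjamini-Hochberg (threshold 0.05). Family members were described without a test in intestine and tested in liver without the level filter, the shared probe set in a fit of all probe sets. Marker levels were compared by exact permutation tests (scipy 1.17.1). Alternatives were other filters, normalizations, fits and thresholds, the replicate block and each array left out.

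The members, gene lists and tests were chosen with earlier results of these data known. Genes named were all gasdermins, up to 4 tested genes of smallest p per pathway list in intestine and up to 4 called ones in liver, up to 2 per marker list and the 6 most like the family, passing over clone names. On simulated data 93% and 97% of log2 changes of 1 and 2 were recovered in intestine (13238 genes), with 4.52% false calls. In liver (13380 genes) 96% and 99% were recovered, with 5.34% false calls. The simulated noise was drawn separately for each gene, without shifts that many genes share on an array. The shares are therefore a check of the procedure and do not measure its power on these arrays.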

Additional observations from a re-analysis of the deposited data

Results flagged for a closer look

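Among 174 sets of values, each 1 gene in 1 group of 4 or 5 arrays, 12 were flagged. The flag marks an array whose gap to its nearest value is large against the range of its group. Chance alone gives about 1 in 20 where values do not tie. In the family, the shared Gsdmc4 and Gsdmc2 probe set stood at 3.14 on OMT liver replicate 3, against 2.51 to 2.64 on the other OMT liver arrays. The probe set annotated to 1700065I16Rik and Gsdmcl2 stood at 2.13 on OMT intestine replicate 5, against 1.77 to 1.87 on the others, and at 2.05 on YMT liver replicate 4, against 1.72 to 1.77.

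Among the OMT intestine arrays, Il1b stood at 3.40 on replicate 1 (others 4.20 to 4.36), and Siglecf, an eosinophil marker, stood at 5.59 on replicate 1 (others 5.33 to 5.38). On OMT intestine replicate 5 Itln1 stood at 11.16 (others 10.57 to 10.73) and Lct, the lactase gene, at 9.29 (others 10.73 to 11.29).

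Among the YMT intestine arrays, Cela1, a pancreatic elastase gene, stood at 4.92 on replicate 1 (others 5.42 to 5.52) and Golga4 at 8.61 on replicate 1 (others 8.84 to 8.86). Acta2, a smooth muscle actin gene, stood at 6.56 on YMT intestine replicate 2 (others 7.09 to 7.15), and Psrc1 at 4.63 on replicate 4 (the others at 4.61). The Psrc1 array was flagged only because the other values tie, and it lies close to them. In liver Stat6 stood at 8.40 on YMT replicate 1 (others 8.07 to 8.09).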

How the results depend on the processing

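The intestinal differences ran from -4.14 to -2.94 for Gsdmc2, -3.97 to -2.98 for Gsdmc3 and -4.34 to -3.75 for the shared probe set. These ranges cover 45 alternatives, 15 for each of the 3 probe sets, and Gsdmc stayed between -0.30 and -0.12. The 3 probe sets were chosen on this contrast, and their groups do not overlap. Leaving out arrays could therefore not reverse their direction, and its being kept is no independent support. Leaving out single arrays gave -3.71 to -2.94 for Gsdmc2, -3.63 to -2.98 for Gsdmc3, -4.30 to -3.75 for the shared probe set and -0.26 to -0.12 for Gsdmc. In liver it gave -0.77 to -0.40 for Gsdmc2 (adjusted p = 0.0244 without YMT liver replicate 1, the only alternative with a call), -0.31 to -0.15 for Gsdmc3, -0.08 to 0.12 for Gsdmc and -0.06 to 0.10 for the shared probe set. No marker list passed after adjustment in any alternative, but with so few arrays none could have passed alone, so this is no evidence of stability.

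The intestine had 548 called genes, but 1331 at a threshold of 0.10, 310 with no filter on level, 1445 with all 18 arrays in 4 groups, 1172 with array weights and 230 without OMT arrays 1 and 2, an alternative chosen after seeing the data. Leaving out single intestine arrays gave 147 to 636 calls: 228 without OMT replicate 2, 275 without OMT replicate 3, and 283, 147 and 236 without YMT replicates 1, 2 and 4. In liver, leaving out single arrays gave 1790 to 2685 calls, against 2563 with all. The cause was not tested. Of the liver calls 54.2% were higher in OMT, and 43.7% after quantile normalization within the tissue.

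With the replicate number as a block, 458 intestine and 1459 liver genes were called, against 548 and 2563 without the block. Deviations from the group mean were correlated over the tested genes between the OMT and the YMT sample of 1 number. The r was -0.06, 0.08, 0.18 and 0.32 in intestine and 0.09, -0.18, -0.07 and 0.02 in liver. The numbers were therefore not taken to pair the samples. Under the block the liver calls of Gsdmd (adjusted p = 0.0594), Il13ra1 (0.0628), Il4ra (0.0596), Stat6 (0.0563) and Nlrp6 (0.132) and the intestine calls of Kit (0.0538), Efr3a (0.11), Ltc4s (0.0935) and Slc26a3 (0.0807) were lost. Without OMT arrays 1 and 2, those of Clca1 (0.0594), Socs1 (0.115), Lypd8 (0.0627), Gzmb (0.071), Gzma (0.131), Kit (0.128), Efr3a (0.0528), Ltc4s (0.0791) and Slc26a3 (0.071) in intestine and of Il17rb (0.0628) and Nlrp6 (0.181) in liver were lost. With no filter on level, those of Efr3a (0.0814), Gzma (0.0623), Ltc4s (0.0686), Lypd8 (0.0552), Slc26a3 (0.0674), Socs1 (0.054) and, in liver, Nlrp6 (0.076) were lost. So were those of Efr3a (0.116) and Nlrp6 (0.0528) with quantile normalization, Ltc4s (0.0655) and Slc26a3 (0.0825) with median centring, and Efr3a (0.0508) with eBayes trend and robust settings. Casp1, Klk1 and Nt5e in intestine and Il18 and Il1a in liver kept their calls in every alternative run. Levels below the array medians limit what can be said of Gsdmc in intestine and of the family in liver.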
